A study of Mus musculus with 24 samples.

Results

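Acot1, Acot2, Acot3, Pdk4, Ucp2, Ucp3 and Angptl4 are genes of fatty acid handling that are known targets of peroxisome proliferator-activated receptors (PPARs). They were followed here in the right ventricle of mice. These 7 genes were chosen by their names, with earlier results of these arrays in view, and selected on measured differences between the same groups, so their own values below are a description and carry no test of their own. The 7 genes are among 12586 genes measured, and 9 of the 55681 non-control probes of the array carry their names. A probe was kept where all arrays of some group read it well above background; this held for 7 of the 9 probes, 1 for each gene, and those 7 represent the genes below.

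The study measured RNA of the right ventricle on 24 arrays, 1 for each sample. The 10 control samples came from sham-operated mice. The other 14 came from mice with PSPI, an operation after which this chamber works against an overload of both pressure and volume, and were labelled month 1 (n = 5), month 2 (n = 5) and month 3 (n = 4). All samples carry the same strain label, M/FVB/10-12, and no age is used here. The sham samples have no month in their titles, so each month was compared with all 10 shams. No label ties the samples to separate animals, so the p-values reflect sample-to-sample spread that could be technical only.

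PPARs are nuclear receptors that pair with the retinoid X receptor, bind fatty acids and raise the transcription of genes that take up, store and burn lipid. In the heart PPAR alpha and PPAR delta set the capacity for fatty acid oxidation, which adult heart muscle uses as its main fuel. Acot1 (cytosolic), Acot2 (mitochondrial) and Acot3 (peroxisomal) are acyl-CoA thioesterases, which split fatty acyl-CoA into free fatty acid and coenzyme A. Pdk4 is a kinase that switches off the pyruvate dehydrogenase complex and so turns the cell from glucose to fat. Ucp2 and Ucp3 are carriers of the inner mitochondrial membrane related to the uncoupling protein of brown fat. Angptl4 is a secreted protein that inhibits lipoprotein lipase, the enzyme that frees fatty acids from circulating fat.

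A level here is the log2 of the array's processed signal minus the 75th percentile of that array, so a level of 0 equals that percentile and a difference of 1 is a doubling. Levels of different probes were not compared. The 60-base probe sequences of the genes whose probes the results turn on are shown first, written 5′ to 3′ as the array files list them, because for Acot3 and Ucp3 the 2 probes of a gene gave different pictures. Capitals mark the letters AATAAA, those of the common polyadenylation signal, which 10.1% of all probes hold.
Acot1: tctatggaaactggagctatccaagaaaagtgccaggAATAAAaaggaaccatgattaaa
Acot2: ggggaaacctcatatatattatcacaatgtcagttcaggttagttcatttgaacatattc
Acot3, probe A_55_P2038347: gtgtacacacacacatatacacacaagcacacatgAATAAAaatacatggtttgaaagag
Acot3, probe A_55_P2069907: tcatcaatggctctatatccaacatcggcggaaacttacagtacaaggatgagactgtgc
Ucp3, probe A_66_P108247: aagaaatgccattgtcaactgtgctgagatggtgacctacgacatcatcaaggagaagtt
Ucp3, probe A_52_P380379: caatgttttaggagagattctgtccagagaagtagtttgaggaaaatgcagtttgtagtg

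In mouse build mm9 the 3 thioesterases lie in 1 cluster on the plus strand of chromosome 12, where RefSeq (GRCm38.p6) places Acot4 between Acot1 and Acot3, with the Acot2 probe at chr12:85334071-85334130, the Acot1 probe at chr12:85358561-85358620, and the Acot3 probes at chr12:85399468-85399527 (A_55_P2069907) and chr12:85400452-85400511 (A_55_P2038347). The Ucp3 probes lie on the plus strand at chr7:107630399-107630458 (A_66_P108247) and chr7:107634291-107634350 (A_52_P380379), and the Ucp2 probe at chr7:107647809-107647868. The Pdk4 probe lies on the minus strand at chr6:5433441-5433500 and the Angptl4 probe on the minus strand at chr17:33911880-33911939. Exons and UTRs were not assigned here. Acot1, Acot2 and Acot3 are close paralogs, but the longest run of letters shared by any 2 of the 9 probes, on either strand, was 9 of 60 bases.

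Features of the arrays that the labels do not give bear on the results. Between 36.1% and 56.1% of probes were well above background per array. In 8 of 276 pairs, arrays of 1 group nearly coincided, with a median absolute log2 difference of at most 0.20 over the 200 most variable genes, against at least 0.38 for other pairs. Among the shams, numbers 3, 4 and 10 formed one such set, 1 and 5 another, and 7 and 9 a further one. Samples 1 and 5 nearly coincided in month 1 and again in month 2, as did samples 2 and 3 in month 3. Results are therefore given also with such arrays averaged, which leaves 17 samples. The arrays lay on 3 slides. Slide 1 carried 7 shams with 1 sample of month 1, and slide 2 carried no sham. Slide 3 alone carried every group, with 3 shams, 1 sample of month 1, 1 of month 2 and 3 of month 3. The near-coincident month 3 samples 2 and 3 were both on it. Its month 1 and month 2 values thus rest on 1 array each, and its values over all months include them. Within slide 3 alone 0 of 12586 genes passed over all months and 0 in month 2 (limma), so values from it are given there without a call; 1673 genes passed in month 3. As the tissue was taken whole, fewer cells of a type and less RNA per cell cannot be told apart.

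Set against sham over all 3 months, weighted equally, 4 of the 7 genes passed an adjusted p of 0.05 in the fit over all genes (limma): Acot1 and Acot2 were lower, Acot3 and Ucp2 higher. Among all genes 24.5% passed. In month 1 none of the 7 passed in limma, and none of all genes (0%), while 1530 genes had an unadjusted p under 0.05. In month 2 Ucp2 (higher) passed, and so did Acot3, which was within background there and is given no direction, against 14.5% of all genes. In month 3 Acot1, Acot2, Acot3 and Ucp2 passed, against 38.9%. Of all genes, 2190 were higher and 2710 lower in month 3; normexp turned this split to 2923 and 1660, and averaging near-coincident arrays left 1320 and 1433. Over all months the split was 1376 higher and 1708 lower, 1886 and 1168 with normexp, and 432 and 356 with such arrays averaged. The genes were chosen with these differences known, so nothing is read from the shares. Acot3 entered the fit only through month 3, the group where it is high, so its calls that involve month 3 are no test.

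**Figure D1:**
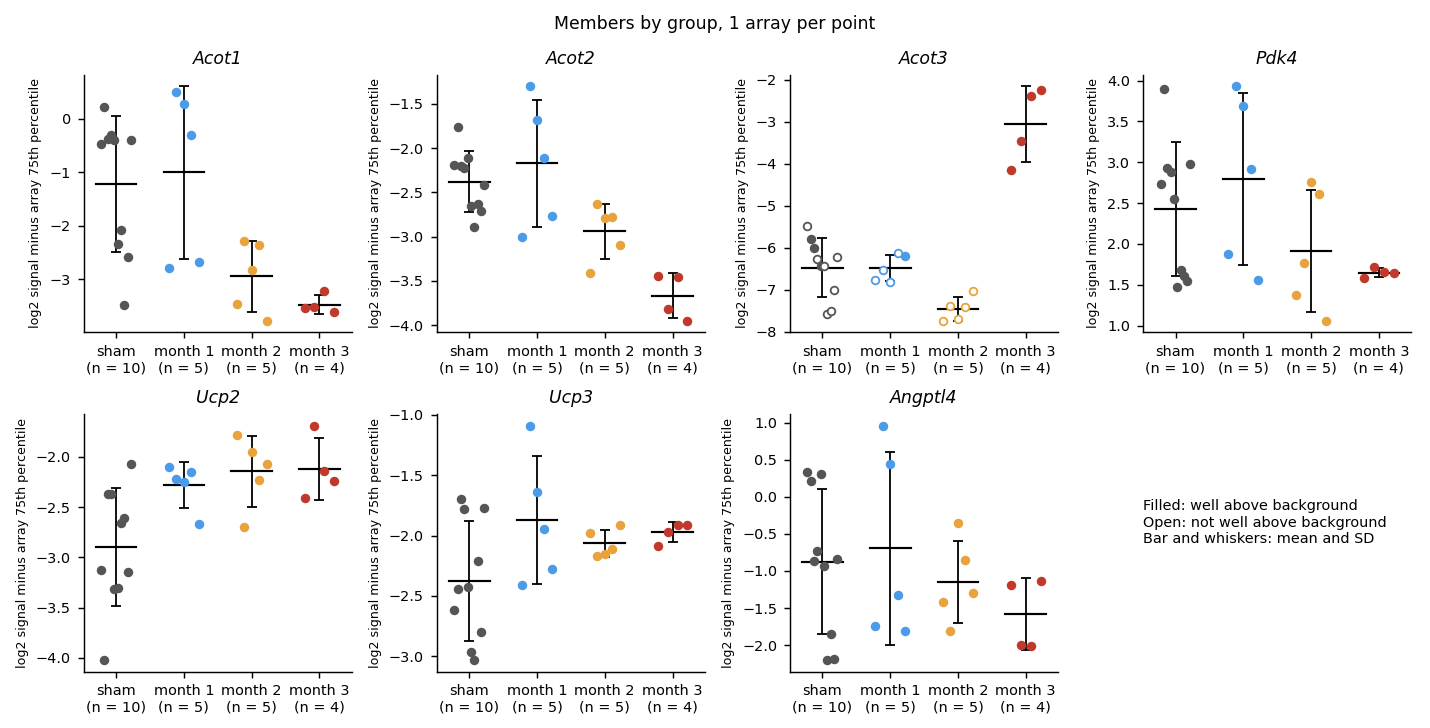
Level of each gene (log2 signal minus the array's 75th percentile) in the 4 groups, 1 array per point, with the mean and SD; open points are not well above background. Acot2 in month 3 (-3.95 to -3.45) lies below every sham, and Acot3 in month 3 (-4.15 to -2.24) above every sham.

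Acot1 stood at 2 separate levels that did not follow the group labels. Its sham levels ran from -3.48 to 0.23 (median -0.43). Sham 1 to 5 and 10 stood between -0.47 and 0.23, while Sham 6, 7, 8 and 9 stood at -2.35, -2.08, -3.48 and -2.58. The month 1 samples 1 to 5 had -2.80, 0.50, 0.27, -0.30 and -2.68, so samples 2 to 4 shared the upper level and samples 1 and 5 the lower. Month 2 gave -3.47, -2.28, -2.84, -2.36 and -3.78 and month 3 gave -3.54, -3.53, -3.22 and -3.62. All samples of both later months thus stood at the lower level, and 3 of 4 month 3 samples lay below every sham. No array lay between -2.08 and -0.47.

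The difference of Acot1 from sham was 0.22 ± 0.60 in month 1 (log2 ± SE, as all such values below), -1.73 ± 0.60 in month 2 and -2.26 ± 0.64 in month 3, which is 4.78-fold lower. Over all months it was -1.25 ± 0.45. That call was lost when any 1 of 15 arrays was left out (-1.28 to -1.09): Sham 1 to 5 and 10, month 1 samples 1 and 5, month 2 samples 1, 3 and 5, and all 4 month 3 samples. In month 2 Acot1 passed when any 1 of 7 arrays was left out: Sham 6, 7, 8 or 9, or month 1 sample 1, 2 or 5 (-1.98 to -1.73). Over 39 settings, each single array left out included, the result over all months was weaker in 21. Beyond single arrays, the settings in which its call was lost included normexp background correction (-1.05), the authors' deposited table (-1.04) and near-coincident arrays averaged (-0.83). With such arrays averaged the month 3 difference was -2.06 ± 0.77 and no longer passed. Within slide 3 the month 3 difference was -2.34 ± 0.58, and with slide as a block it was -2.92 ± 0.71. The month 2 difference was -3.18 with slide as a block and then passed.

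Acot2 moved less but in a like order. Its sham levels ran from -2.89 to -1.76 (median -2.32). Month 1 gave -3.00, -1.30, -1.68, -2.11 and -2.77, month 2 gave -3.41, -2.63, -2.79, -2.78 and -3.09, and month 3 gave -3.45, -3.82, -3.46 and -3.95. Month 1 spread on both sides of the shams, 2 of 5 month 2 samples lay below every sham, and all 4 month 3 samples did. The difference from sham was 0.21 ± 0.22 in month 1, -0.56 ± 0.22 in month 2 and -1.29 ± 0.24 in month 3, a 2.45-fold lower level. The month 3 difference was -1.30 ± 0.29 with near-coincident arrays averaged and -1.33 ± 0.21 within slide 3. Over all months it was -0.55 ± 0.17. That call was lost with normexp (-0.37), in the authors' deposited table (-0.36) and with near-coincident arrays averaged (-0.47 ± 0.21). Within slide 3 it was -0.79. The month 2 difference passed with slide as a block (-1.15).

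Acot3 was near background until month 3. Its probe A_55_P2038347 had sham levels from -7.57 to -5.48 (median -6.35), well above background on 3 of 10 arrays. In month 1 the levels were -6.76, -6.54, -6.82, -6.14 and -6.19 (1 of 5 well above background), and in month 2 they were -7.74, -7.40, -7.69, -7.42 and -7.03 (0 of 5). In month 3 they were -4.15, -3.46, -2.40 and -2.24, all 4 well above background and above every other array. The probe was kept only through month 3, the group where it is high, and 7 of 10 shams were not well above background. The measured difference of month 3 from sham, 3.41 ± 0.34, therefore has no exact size. It was 3.87 ± 0.36 within slide 3, but 2.07 ± 0.27 with normexp and 2.07 ± 0.27 in the authors' deposited table. Over all months the difference was 0.80 ± 0.24, and it no longer passed with near-coincident arrays averaged (0.84 ± 0.28). Within slide 3 it was 1.26. Against month 2, where the probe was not well above background, a rough bound put the level 10.7-fold higher. It takes for each month 2 array the higher of its own value and a floor, that array's lowest signal well above background. That floor is not a detection limit: on Sham 1 the probe read -5.48, not well above background, with a floor of -5.64. The smaller differences with normexp and in the deposited table do not reach this bound. The lower value in month 2 than in sham (-0.98 ± 0.32) lies near that floor. It was 0.07 ± 0.25 with normexp and 0.07 ± 0.25 in the authors' deposited table, so no direction is given for it. That call was also lost on leaving out any 1 of 12 arrays (Sham 1 to 6 and 10, or any month 2 sample; -1.09 to -0.87).

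The other Acot3 probe, A_55_P2069907, was well above background on 0 of the 24 arrays. Its levels were -8.39, -6.69, -7.24 and -8.19 in month 3, against -9.12 to -7.89 in sham, and 2 of 4 month 3 arrays lay above every sham, as did month 1 sample 4 (-6.70) and month 2 sample 4 (-7.63). It lies 984 bases upstream of the first probe, and over the 24 arrays the 2 correlated with r = 0.44. Both probes list the same RefSeq transcript of Acot3.

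The Acot3 probe that was higher in month 3 holds an alternating run of A and C of 11 bases, and 0.393% of all probes hold an alternating run of A and C, or of T and G, as long. After this was seen, the other kept probes with such a run of A and C were looked at. In month 3 65 of these 68 probes were higher than in sham and 1 was lower, with a median difference of 1.98, against 21.7% higher and a median of 0.03 over all kept probes. Among the 53 of them that were well above background on all 24 arrays, 50 were higher, with a median of 1.91, against 18.3% of all 16946 such probes. For the 126 kept probes with a run of T and G the month 3 median was 0.45, with 46 higher. In months 1 and 2 the medians of the 68 probes were 0.04 and -0.15, with 0 higher in either month. The part of this sequence feature in the month 3 level of Acot3 was not tested.

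**Figure D2:**
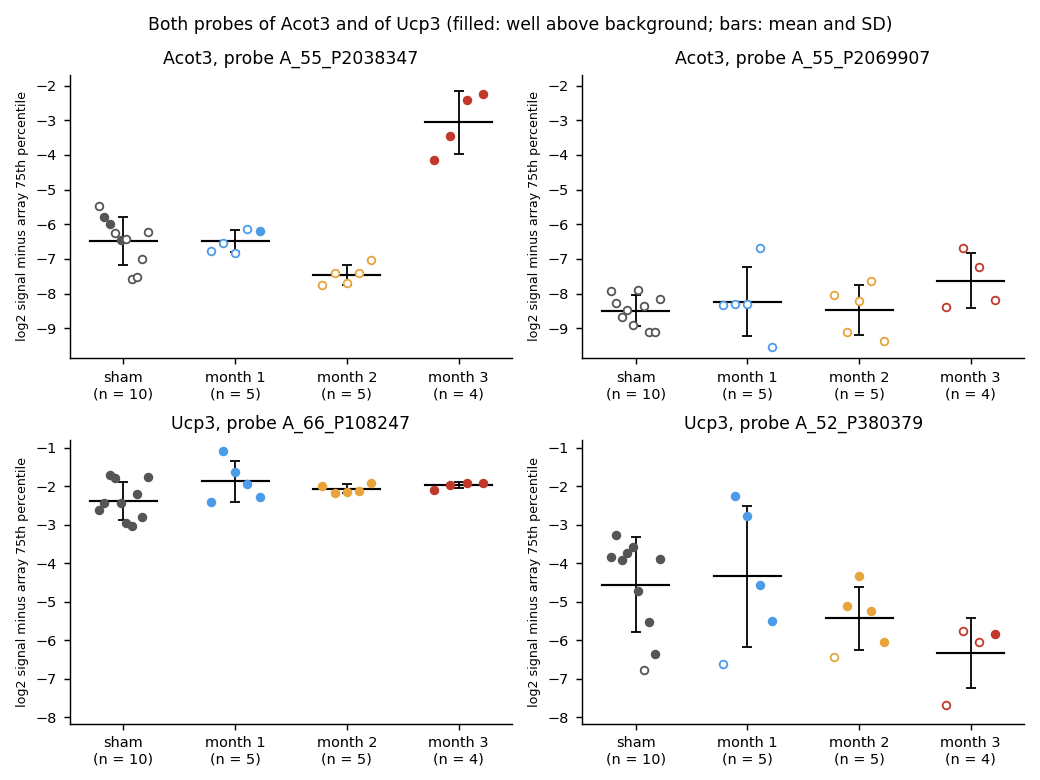
Levels of both probes of Acot3 (top) and of Ucp3 (bottom) in the 4 groups, 1 array per point with mean and SD, filled where well above background. The left Acot3 probe is at -4.15 to -2.24 in month 3, while the right one is within background throughout; the right Ucp3 probe runs from -7.69 to -2.24 and the left one from -3.03 to -1.09.

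Pdk4 showed a spread between arrays of sham and month 1 that was larger than any difference between groups. The sham levels ran from 1.47 to 3.90 (median 2.64), with Sham 6 to 9 at 1.47 to 1.68 and the other shams at 2.55 to 3.90. Month 1 gave 1.88, 3.93, 3.69, 2.92 and 1.56, month 2 gave 1.38, 1.76, 2.76, 2.61 and 1.06, and month 3 gave 1.58, 1.72, 1.65 and 1.64. The 4 month 3 samples lay close together (SD 0.06) and within the range of the shams. The differences from sham were 0.37 ± 0.41, -0.51 ± 0.41 and -0.78 ± 0.44 in months 1 to 3, and none passed.

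Ucp2 differed from sham by a like size at all 3 times. Its sham levels ran from -4.02 to -2.07 (median -2.90). Month 1 gave -2.10, -2.22, -2.25, -2.15 and -2.67, month 2 gave -1.78, -2.70, -1.95, -2.23 and -2.07, and month 3 gave -2.41, -1.69, -2.14 and -2.24. Every PSPI sample lay above the sham median, and 3 of 14 lay above every sham, so the groups overlapped. The difference was 0.62 ± 0.24 in month 1, 0.75 ± 0.24 in month 2 and 0.78 ± 0.25 in month 3, a 1.71-fold higher level, and 0.72 ± 0.18 over all months. With near-coincident arrays averaged it was 0.84 ± 0.20 over all months and still passed. With slide as a block it was 0.74 ± 0.28 and did not pass, and within slide 3 it was 0.58. In month 3 the same settings gave 0.78 ± 0.32 and 0.81 ± 0.34, which did not pass. In month 2 the call was lost with slide as a block (0.79) and with near-coincident arrays averaged (0.85), where 7 of all genes passed. Within slide 3, which holds 1 array of month 2, the month 2 difference was 0.77. The month 3 call was lost without month 3 sample 2 (0.63), and the month 2 call without any 1 of Sham 1, 5 and 6 and month 2 samples 1, 3, 4 and 5 (0.66 to 0.77).

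The 2 probes of Ucp3 differed in months 2 and 3. Probe A_66_P108247 had sham levels from -3.03 to -1.70 (median -2.43). Month 1 gave -2.41, -1.09, -1.64, -1.95 and -2.28, month 2 gave -1.98, -2.17, -2.15, -2.11 and -1.91, and month 3 gave -2.09, -1.97, -1.91 and -1.91. The differences from sham were 0.50 ± 0.22, 0.31 ± 0.22 and 0.40 ± 0.23 in months 1 to 3, and none passed. Probe A_52_P380379, 3892 bases further downstream, had a higher mean than sham in month 1, as the first probe did, and a lower one in months 2 and 3: its mean was -4.56 ± 1.24 (SD, n = 10) in sham, -4.33 ± 1.84 (n = 5) in month 1, -5.43 ± 0.83 (n = 5) in month 2 and -6.33 ± 0.91 (n = 4) in month 3. It was well above background on 9 of 10, 4 of 5, 4 of 5 and 1 of 4 arrays, so it was left out of the fit. The 2 probes list the same RefSeq transcript but different Ensembl transcripts, and they correlated with r = 0.39 over the 24 arrays. Over all months the first probe passed when any 1 of Sham 3, 4 and 10 and month 1 sample 1 was left out (0.45 to 0.48).

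Angptl4 differed between arrays of the same group more than between groups. Its sham levels ran from -2.20 to 0.34 (median -0.85). Month 1 gave -1.74, 0.96, 0.44, -1.32 and -1.81, month 2 gave -1.42, -1.81, -0.36, -0.85 and -1.30, and month 3 gave -1.19, -2.0, -2.01 and -1.13. The differences were 0.18 ± 0.48, -0.27 ± 0.48 and -0.71 ± 0.52 in months 1 to 3. None passed, and every sample of months 2 and 3 lay within the range of the shams.

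**Figure D3:**
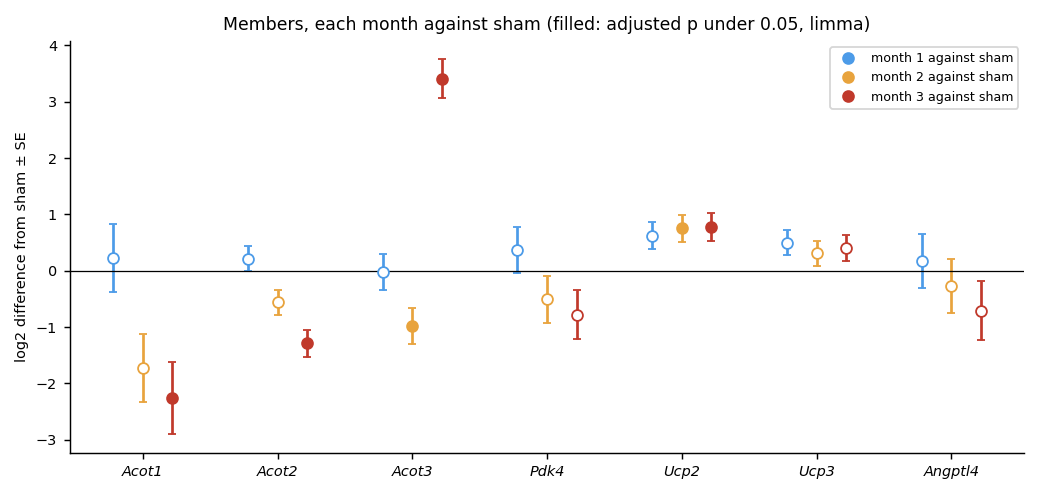
Log2 difference of each gene from sham (± SE of the fit) in months 1, 2 and 3; filled points passed an adjusted p of 0.05 in limma. The month 3 differences run from -2.26 (Acot1) to 3.41 (Acot3, mostly within background outside month 3), and no month 1 point is filled.

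Between months 1 and 2 0 of the 7 genes passed in limma (0.0159% of all genes did, and 1613 genes had an unadjusted p under 0.05). With a replicate block on the sample numbers 0 of the 7 and 82 of all genes passed. That block tied the numbers 1 to 5 over all groups, sham included, and not months 1 and 2 alone. It was tried from the data alone, and no label pairs the months. From month 2 to month 3 Acot3 passed, with the rough bound of 10.7-fold given above, against 18.9% of all genes. From month 1 to month 3 Acot1 (-2.47 ± 0.73), Acot2 (-1.50 ± 0.27) and Acot3 passed, against 28.6% of all genes. For Acot3 the measured difference of 3.43 has no exact size, as 4 of 5 month 1 arrays were not well above background. Its probe was kept only through month 3, so its calls against months 1 and 2 are a description, not a test. Ucp2 differed by 0.16 ± 0.29 and Ucp3 by -0.10 ± 0.26 between months 1 and 3. Pdk4 (-1.15 ± 0.50) did not pass from month 1 to month 3, but did when month 1 sample 5 was left out (-1.46). Acot2 (-0.73 ± 0.27) did not pass from month 2 to month 3, but did on leaving out month 1 sample 1 or 2, month 2 sample 1 or month 3 sample 1 (-0.84 to -0.73).

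The split of Acot1 ran beside that of Myh7, the slow myosin heavy chain, which rises in loaded ventricles of the mouse. On 9 arrays the level of Myh7 was 1.62 to 2.52, and on the other 15 it was 4.67 to 5.91. The 9 arrays with the lowest Myh7 were the 9 with the highest Acot1 and the 9 with the highest Acot2. They held 8 of the 9 highest arrays of Pdk4, 8 of 9 for the downstream Ucp3 probe and 7 of 9 for Angptl4, but 3 of 9 for Ucp2 and 4 of 9 for the Acot3 probe that was higher in month 3. As the arrays fall into 2 separate clusters, no correlation with Myh7 is given, and the shared counts are a description. Sham 6 to 9 were among the 15 arrays with high Myh7, and what sets them apart from the other shams was not tested.

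**Figure D4:**
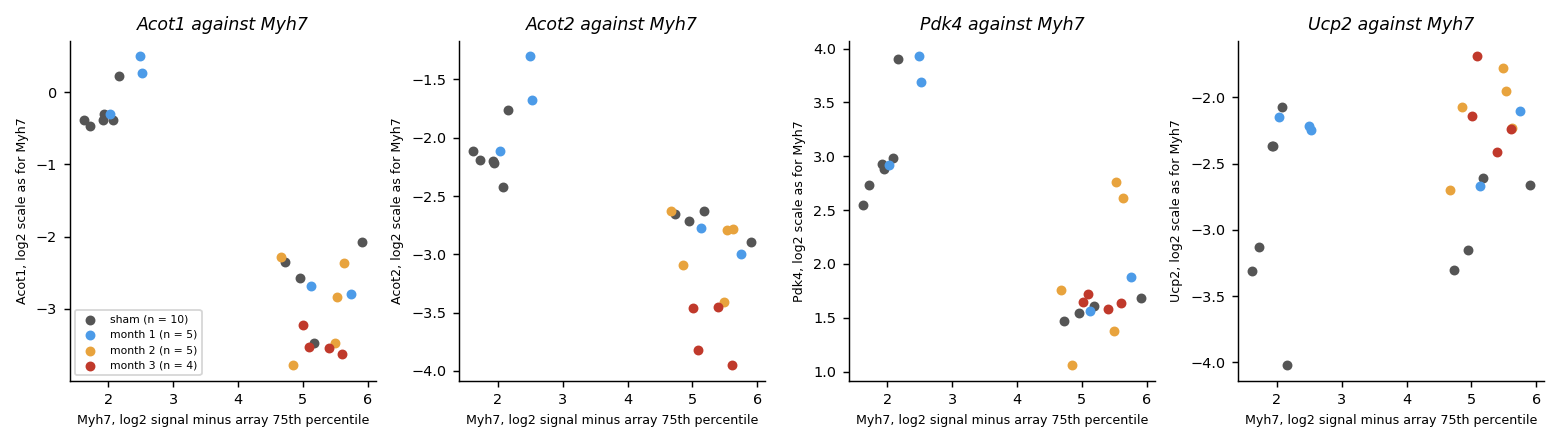
Level of Acot1, Acot2, Pdk4 and Ucp2 against that of Myh7 on the same array (both log2 signal minus the array's 75th percentile), 1 point per array, coloured by group. The 9 arrays with Myh7 at 1.62 to 2.52 hold the 9 highest levels of Acot1 and of Acot2; for Ucp2 they hold 3 of the 9 highest.

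Genes whose levels ran most like each member over the 24 arrays were found by Pearson's r. It serves only to rank genes, since the arrays fall into the same 2 clusters here, above all for Acot1, Acot2 and Pdk4. For Acot1 they included Fbp2 (r = 0.97), the muscle form of fructose bisphosphatase, and P3h4 (0.97). For Acot2 they were Slc25a42 (0.97), a mitochondrial carrier of coenzyme A, Nudt7 (0.96), a peroxisomal hydrolase of coenzyme A, and Ehhadh (0.96), the peroxisomal bifunctional enzyme of fatty acid oxidation. For Pdk4 they included Chrna2 (0.92) and Pdp2 (0.90), a phosphatase that switches pyruvate dehydrogenase on. For Ucp2 they were C1qb (0.90), Krt85 (0.87) and C1qc (0.86), of which C1qb and C1qc are complement chains made by macrophages. For Acot3 they were D3Ertd751e (0.96), Pdik1l (0.945) and Scd3 (0.945), a stearoyl-CoA desaturase. The probe of Pdik1l holds an alternating A and C run of 13 bases, those of D3Ertd751e and Scd3 of 6 and 3. For Ucp3 the values were lower, with Spock2 (0.83), Cntfr (0.80) and Ccl6 (0.80), as for Angptl4 with Aldh9a1, C2cd4b (both 0.84) and Dnaaf3 (0.83).

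For the genes around these members the month 3 counts are given first, since most calls over all months were lost when near-coincident arrays were averaged: of the 7 lists read below, 5 then had 0 called over all months. All month 3 arrays, but only Sham 6 to 9 of the 10 shams, were among the 15 arrays with high Myh7. The part of that split in the month 3 differences of the lists below was not tested. The receptors themselves moved in different directions by month 3. Of 13 PPAR, RXR and coregulator genes tested, 2 were higher and 5 lower (17.4% and 21.5% of all genes were), with a median difference of -0.09 against -0.04 over all genes; with near-coincident arrays averaged 1 was higher and 3 lower. Ppara, the receptor that leads in heart muscle, fell by 0.58 ± 0.13 on the log2 scale (limma, adjusted p = 0.00137), from 0.67 to 1.25 in sham to -0.02 to 0.57 in month 3. Averaging all kept Ppara probes gave -0.24, which did not pass. Pparg, the receptor that leads in fat cells, rose by 0.69 ± 0.11 (limma, adjusted p = 4.29e-05), from -1.56 to -1.08 in sham to -0.91 to -0.38. Lpin1, a phosphatidate phosphatase that also acts as a coactivator, fell by 1.07 ± 0.18 (limma, adjusted p = 0.000103). The coactivator Ncoa1 fell by 0.34 ± 0.08 over all months (limma, adjusted p = 0.00562), a call that was lost with near-coincident arrays averaged (-0.30). Med1, a Mediator subunit, was lower on its brightest probe (-0.28 ± 0.09 in month 3) but higher, without passing, when its kept probes were averaged (0.19), so no direction is given for it.

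Most other PPAR-responsive lipid genes that changed were lower in month 3. Of 34 tested, 19 were lower and 3 higher, against 21.5% and 17.4% of all genes, with a median of -0.55 against -0.04. With near-coincident arrays averaged 15 were lower and 2 higher, against 1433 and 1320 of all 12586 genes. Over all months 13 were lower and 0 higher, against 13.6% and 10.9% of all genes, but 0 and 0 with such arrays averaged. The medians were -0.27 and, with averaging, -0.23. The 3 higher in month 3, named after their values were seen, were Acaa1b (0.40), a peroxisomal thiolase, Fabp4 (0.39), the fatty acid binding protein of fat cells and capillaries, and Aldh3a2 (0.55), a fatty aldehyde dehydrogenase. In month 1 none passed and the median was 0.07. Slc25a20, the carnitine-acylcarnitine carrier that brings fatty acids into mitochondria, fell by 1.10 ± 0.16 in month 3 (limma, adjusted p = 3.2e-05); all 4 samples (-2.95 to -1.74) lay below every sham (-1.50 to -1.03). Etfdh, the oxidoreductase that hands electrons of beta-oxidation on to ubiquinone, fell by 0.82 ± 0.13 (limma, adjusted p = 8.69e-05). Eci2, an enoyl-CoA isomerase, fell by 0.72 ± 0.15, Decr1, the dienoyl-CoA reductase, by 0.79 ± 0.20, and Pex11a, a factor of peroxisome division, by 0.87 ± 0.22 (limma, adjusted p of 0.000738, 0.00382 and 0.00339).

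Beside Acot1 to Acot3, 8 other acyl-CoA thioesterases were tested, and 2 were lower and 0 higher in month 3, a share lower near the 21.5% of all genes. Acot7, a cytosolic thioesterase abundant in brain, fell by 0.35 ± 0.10 (limma, adjusted p = 0.00777). That call was lost without month 3 sample 2 (-0.29) and with near-coincident arrays averaged (-0.35). Acot6, a gene of the same chromosome 12 cluster, had a difference of -0.47 ± 0.15 that was 0.01 with normexp and 0.06 in the authors' deposited table, so no direction is given for it. The list's median was -0.20.

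Of 11 genes of the pyruvate dehydrogenase complex and its regulators, the targets and partners of Pdk4, 5 were lower and 0 higher in month 3. Their median was -0.42, against -0.04 over all genes, of which 21.5% were lower and 17.4% higher. Averaging near-coincident arrays left 5 and 0, against 1433 lower and 1320 higher of all 12586 genes. The fall took in subunits of the complex: Pdha1 (-0.75 ± 0.14), Dld (-0.64 ± 0.12), Dlat (-0.51 ± 0.11) and Pdhb (-0.42 ± 0.10), with limma adjusted p of 0.00023, 0.000339, 0.000729 and 0.00244. Pdp1, a phosphatase that switches the complex on, fell by 0.58 ± 0.12 (limma, adjusted p = 0.000738). Pdk1, a sister kinase of Pdk4, had a difference of 0.26 ± 0.09 over all months (limma, adjusted p = 0.0415), a call that was lost with near-coincident arrays averaged (0.19) and with slide as a block (0.31).

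Of 5 relatives of the uncoupling proteins none passed in month 3, against 38.9% of all genes, of which 6058 had an unadjusted p under 0.05. Slc25a5, an adenine nucleotide carrier, had a difference of 0.23 ± 0.08 over all months (limma, adjusted p = 0.0318), which did not pass with near-coincident arrays averaged (0.18) or with the percentile over all probes (0.16). Of 10 lipoprotein lipase and angiopoietin-like genes, the surroundings of Angptl4, 2 were higher and 2 lower in month 3 (median -0.03), near the 17.4% and 21.5% of all genes. Gpihbp1, which anchors lipoprotein lipase on capillaries, rose by 1.02 ± 0.14 (limma, adjusted p = 1.37e-05), and all 4 samples (1.84 to 2.84) lay above every sham (1.21 to 1.77). Lrp1, a receptor that clears lipoprotein remnants, rose by 0.58 ± 0.15 and Vldlr, the receptor for very low density lipoprotein, fell by 0.38 ± 0.08 (limma, adjusted p of 0.0047 and 0.000618).

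Glucocorticoids and fasting also induce Pdk4 and Angptl4, so 14 genes that respond to either were read beside them. In month 3 7 of 14 were higher and 0 lower (median 0.63), against 17.4% and 21.5% of all genes (median -0.04). With near-coincident arrays averaged 3 were higher and 0 lower (median 0.55), against 1320 and 1433 of all 12586 genes. Pdk4 and Angptl4 did not pass in month 3. The part of glucocorticoids or fasting was not tested. Mt2, a metallothionein, rose by 1.55 ± 0.29, Irs2, an insulin receptor substrate, by 1.59 ± 0.32, and Fbxo32, a ubiquitin ligase of muscle wasting, by 0.75 ± 0.14 (limma, adjusted p of 0.000346, 0.000606 and 0.00036). In month 1 none of the 14 passed (median 0.11).

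**Figure D5:**
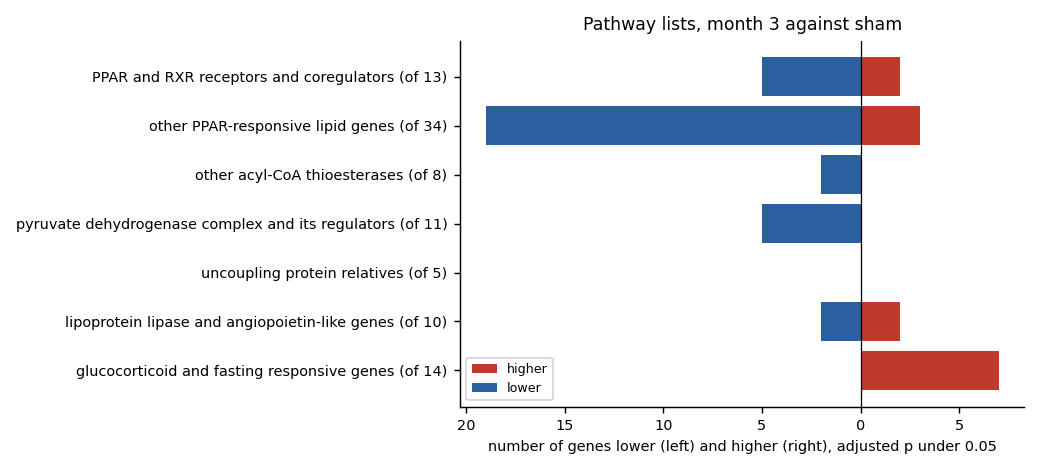
Number of genes lower (bars to the left) and higher (bars to the right) in month 3 than in sham at an adjusted p of 0.05 in limma, for 7 lists of related genes; the number tested stands beside each name. Among other PPAR-responsive lipid genes 19 of 34 were lower, and among glucocorticoid and fasting responsive genes 7 of 14 were higher. Of all genes, 21.5% were lower and 17.4% higher.

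Markers of the cell types that a ventricle sample can hold were read as whole lists. Beside the month 3 counts below, 17.4% of all genes were higher and 21.5% lower. With near-coincident arrays averaged 1320 and 1433 of all 12586 genes were. All 10 ventricular cardiomyocyte markers were measured, with 0 higher and 2 lower in month 3, though their median was 0.33. Their sum of linear signal was 323 to 804 in month 3 against 249 to 588 in sham. Of 8 macrophage and monocyte markers tested, 3 were higher and 0 lower in month 3 (median 0.33). Over all months 6 were higher and 0 lower (median 0.44), against 10.9% and 13.6% of all genes, beside the higher Ucp2. Against 432 of all 12586 genes, 3 of these markers were higher over all months with near-coincident arrays averaged (median 0.43). Their summed signal, in units of the array's 75th percentile, was 4.17 to 6.61 in sham, 5.51 to 6.47 in month 1, 4.69 to 6.50 in month 2 and 5.88 to 6.11 in month 3. The part of these cells in the Ucp2 difference was not tested. Ucp1 and Elovl3, which mark brown fat, and Lep of white fat stayed within background on all 24 arrays. Of the 7 adipocyte markers 4 were tested, of which 1 (Fabp4) was higher and 2 lower in month 3 (median -1.07). With near-coincident arrays averaged 1 was higher and 0 lower (median -0.53). Their sum was 20.3 to 27.8 in month 3 against 15.6 to 21.7 in sham. It adds linear signal, so bright markers weigh most in it, and it went the other way from the median. Of 3 brown adipocyte markers tested 1 was higher in month 3, with a sum of 4.32 to 7.60 against 3.25 to 4.93 in sham. The part of fat cells in the higher Pparg and Fabp4, of which Fabp4 is itself on the adipocyte list, was not tested. Of 7 endothelial markers 3 were higher in month 3, with a sum of 9.29 to 10.4 against 5.49 to 8.34 in sham, beside the higher Gpihbp1; with near-coincident arrays averaged 1 of 7 was higher. Their part in it was not tested. Atrial markers varied widely within sham, their sum running from 1.26 to 201 there and from 31.1 to 54.0 in month 3. The sums were 18.6 to 38.9 for erythroid markers, 31.9 to 65.8 for fibroblast markers and 1.00 to 36.9 for skeletal muscle markers over all arrays.

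RefSeq promoter windows (build GRCm38.p6, 250 bases before to 50 after the start) were at hand for 6 of the 7 genes, in 7 windows. A loose form of the direct repeat that PPAR and RXR bind, 2 copies of AGGTCA with 1 base between them and the fourth base of each copy open, was in 0 of the 7 on either strand and in 0.381% of all 32851 windows. The single copy AGGTCA, whose matches include those of stricter repeats, was in the windows of 2 of the 6 genes, Ucp3 and Acot3, and in 16.3% of all windows. The 2 windows of Acot3 start 7 bases apart and hold the same match. A match is only a match of letters, and sites further from the start were not looked at.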

How the data were processed

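RNA was labelled with Cy3 on 1-colour Agilent arrays and read with Agilent Feature Extraction 10.7.3.1, per the submitters' processing notes. Per the file headers, the scanner software had already subtracted the background from the intensity of each spot. The deposited intensity values are linear, and arrays were not brought to a common scale. The authors' deposited table of the series also holds intensity values, equal to the net signal of the scanner files on 24 of 24 arrays.

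Spots of control probes and spots marked as outliers (143 to 290 an array) were dropped, and repeated spots averaged. From log2 of the processed signal the array's 75th percentile was subtracted, from the 16946 probes that read well above background on each of the 24 arrays. A probe was kept where all arrays of some group read it well above background (21040 of 55681), and the kept probe of highest mean stood for its gene. Genes were tested with limma 3.58.1 (R 4.3.3; lmFit, eBayes, 4 group means, two-sided, Benjamini-Hochberg over 12586 genes, threshold 0.05). The fit was tested on simulated data, drawn independently for each gene and array. Such data hold no near-coincident arrays, slides or Myh7 split, so that test says nothing about their effect on the calls.

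The members and lists were chosen with earlier results of these data known. The measure of near-coincident arrays was settled after several measures had been tried on the data. From each list, up to 4 genes with the smallest p over all months and up to 3 in month 3 that passed were named, and for each member the 3 genes with the highest r, of which 1 gene is not reported here. The look at A and C runs was added after seeing the data. Title numbers did not pair the samples over all groups (27 same-numbered pairs, r from -0.447 to 0.514, 9 of them over 0.1). Between months 1 and 2 all 5 pairs were over 0.1 (0.187 to 0.514), a pairing seen in the data alone that no label states. The main fit was not paired. The replicate block tied the numbers 1 to 5 over all groups, sham included, and not these 2 months alone. Samples 2 to 4 of both months lay on slide 2 and sample 5 of both on slide 3. The part of the slide in these correlations was not tested. The rough bound for Acot3 uses the lowest signal of a probe well above background on each array (-7.45 to -5.06), which is not a detection limit. The number of arrays limits the precision.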

Additional observations from a re-analysis of the deposited data

Results flagged for a closer look

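Of the 28 groups of values checked (7 genes in 4 groups), 1 held a value far from the rest: Ucp2 in month 1 sample 5, at -2.67, lay below the other month 1 samples by 0.733 of the group's range. By chance about 1 in 20 groups is picked out in this way. Months differed from each other for 3 genes by the fit's own test. Month 3 lay below month 1 for Acot1 (-2.47) and Acot2 (-1.50), and above it for Acot3 (measured difference 3.43). Month 3 also lay above month 2 for Acot3 (measured difference 4.40). The Acot3 probe was well above background on 1 of 5 month 1 and 0 of 5 month 2 arrays, so these sizes are not exact. The rough bound against month 2 is 10.7-fold in the main processing only. The genes were selected on such differences, so these are descriptions.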

How the results depend on the processing

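Counts of members that passed changed by more than 1.5 times in these settings, with the number of all 12586 genes that passed beside them. Over all months (4 as reported) the count was 2 with normexp background, 1 with near-coincident arrays averaged and 0 on slide 3 alone (3084 genes as reported, then 3054, 788 and 0). In month 2 (2 as reported) it was 1 with normexp or the deposited table, 0 with no filter, near-coincident arrays averaged or slide 3 alone, 4 with array weights and 5 with a replicate block on the title numbers, which sham shares only as numbers (1831 genes as reported; 1434 with normexp, 1399 in the deposited table, 7 averaged, 0 on slide 3, 4339 with weights, 3046 with the block; 846 of 23608 with no filter). The replicate block held only the numbers 1 to 5, so it left out Sham 6 to 10. Of these, Sham 6 to 9 stood at the lower Acot1 level, so its set of shams differs from that of the main fit. From month 1 to month 2 (0 as reported) array weights gave 4, and 2039 genes against 2. From month 2 to month 3 (1 as reported) it was 2 with the percentile over all probes, quantile normalization, the replicate block, array weights or only the groups compared, and 0 with only probes detected everywhere, where Acot3 is not tested. Of all genes 2376 passed as reported, then 3035, 3108, 2246, 5262 and 1206 in that order, and 1939 of 10780 with only probes detected everywhere. From month 1 to month 3 (3 as reported) it was 1 on slide 3 alone and 5 with array weights (3597 genes as reported, then 109 and 5807). The cause of these changes was not tested.

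Leaving out each array in turn gave 3 to 4 members over all months, 0 in month 1, 0 to 3 in month 2, 3 to 4 in month 3, 0 from month 1 to 2, 1 to 2 from month 2 to 3 and 3 to 4 from month 1 to 3. With all arrays in, 24.5%, 0%, 14.5%, 38.9%, 0.0159%, 18.9% and 28.6% of all genes passed in these comparisons, in that order. Acot3 in month 2 against sham turned to 0.07 with normexp and 0.07 in the deposited table. Med1 turned to 0.05 over all months and 0.19 in month 3 with probes averaged, and Acot6 in month 3 to 0.01 with normexp and 0.06 in the deposited table. List medians over all months moved for other thioesterases to 0.02 (normexp) and 0.03 (deposited table) from -0.08, for the pyruvate dehydrogenase list to -0.33 (slide as a block) from -0.18, and for uncoupling relatives to -0.03 (quantile) and 0.05 (probes detected everywhere) from 0.22. Without single arrays the medians ran from -0.08 to -0.02 (receptors), -0.30 to -0.23 (lipid genes), -0.11 to -0.05 (thioesterases), -0.21 to -0.11 (pyruvate dehydrogenase), 0.14 to 0.26 (uncoupling relatives), 0.07 to 0.12 (lipoprotein lipase) and 0.16 to 0.25 (glucocorticoid and fasting).

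Signal over background limits Acot3, which was not well above background on 16 of 24 arrays, and the downstream Ucp3 probe (6 of 24).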
